A study of Mus musculus with 12 samples.

Results

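miR-802, a liver miRNA tied to glucose metabolism, stood at 89.5 scaled intensity units in the liver pool taken 22 h after a lights-on (ZT22), against 20.6 to 33.9 units in the other 11 pools. Its entry, mmu-miR-802, is 1 of the 650 miRNA entries on these arrays and is read by 2 of the 1857 probes, each printed as 10 spots. The entry was taken by its name, and it was chosen by its known role in obesity and by this high ZT22 signal, so the ZT22 values are given as a description, with no test, and the tests of miR-802 below leave that array out. A run that includes it is shown only for its effect on the values.

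Total RNA of livers from adult mice was hybridised to one-colour Agilent miRNA arrays. The animals were kept under a cycle of 12 h light and 12 h dark and could eat and drink at will; zeitgeber time (ZT) is the number of hours since a lights-on. Per the series text, RNA of 2 livers was mixed for each time point, and the time points ran at 4-h steps between ZT18 and ZT62, so each of the 12 arrays reads 1 pool. The 6 dark pools are ZT18, ZT22, ZT38, ZT42, ZT46 and ZT62, and the 6 light pools are ZT26, ZT30, ZT34, ZT50, ZT54 and ZT58. All pools share these housing conditions, and strain, genotype and sex are not given in the sources used here. A pool gives the mean of its livers, so a change in 1 liver and a smaller change in both cannot be told apart. In bulk liver, fewer cells of a type and less RNA per cell cannot be told apart either. With pools in place of animals, each p-value given here reflects variation among pools, labelling and hybridisation together. Variation among mice is part of it and cannot be told apart from the rest.

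MicroRNAs are short RNAs that pair with messenger RNAs, mainly through the seed near their 5′ end, and lower the output of those messengers. In mouse liver miR-802 is known to rise in obesity and to impair glucose tolerance and insulin signalling. It is also made in other epithelial organs, among them pancreas, kidney and intestine. The array entry carries an older name without an arm; it is taken here as the 5′ arm of the hairpin, which that name is known for, and was not checked against the probe sequences, which were not used here.

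The mature sequence is shown because it sets which messengers miR-802 can pair with, beside those of miR-200a and miR-200b, 2 epithelial miRNAs that were also highest at ZT22. Capitals mark the seed, bases 2 to 8, and all sequences are from RefSeq on GRCm38.p6.
miR-802-5p: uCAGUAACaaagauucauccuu
miR-200a-3p: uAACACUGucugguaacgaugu
miR-200b-3p: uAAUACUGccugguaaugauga
In the hairpin of Mir802, capitals mark the 5′ and then the 3′ mature arm.
Mir802 hairpin: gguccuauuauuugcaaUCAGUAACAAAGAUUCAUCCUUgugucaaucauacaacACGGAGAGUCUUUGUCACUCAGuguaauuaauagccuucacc

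The 22 bases of miR-802-5p lie on the plus strand at chr16:93369737-93369758, within a 97-base hairpin at chr16:93369720-93369816. The hairpin overlapped 0 other genes of the RefSeq annotation, and its nearest annotated neighbours were the long noncoding RNAs 1810053B23Rik and 1700029J03Rik. Of the 1738 mature mouse miRNAs in the RefSeq table, 0 others carried the seed of miR-802-5p, so the entry has no seed family there. The longest stretch that another mature miRNA shared with it was 8 bases, found in 3 miRNAs. Of these 3, miR-211 has an entry on the arrays, and it was detected on 0 arrays. The seed of miR-200a-3p was shared by 1 other mature miRNA and that of miR-200b-3p by 2.

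Levels are given as scaled intensity, the background-subtracted spot brightness on a linear scale divided by a factor for each array that lay between 0.910 and 1.16. At ZT22 the 10 spots of the brighter probe (A_54_P1848) averaged 89.5 ± 8.17 units (SD over spots). Its means on the other 11 arrays had a lowest value of 20.6, a median of 23.6 and a highest value of 33.9 units, so ZT22 was 3.46 times their mean of 25.9 ± 4.46 (SD, n = 11) and 2.64 times the highest of them. On these arrays 57 of the 104 spots used were well above background, and 1 of 10 at ZT50, the highest of them. Both folds are thus in part against signal near background. The dimmest ZT22 spot read 72.2 units, and 0 of the other 104 spots used reached it.

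The second probe (A_54_P1847) had the same order of ZT22 above the rest. It averaged 47.6 ± 5.48 units (SD over 10 spots) at ZT22, against means of 6.69 to 16.7 units on the other 11 arrays. No fold is given, since on those arrays 1 of its 103 spots was well above background. Here too the dimmest ZT22 spot lay above the brightest of the other 103 spots used, at 34.6. The scanner software's own total for miR-802 was 86.0 units at ZT22 and 13.6 to 30.4 units on the other arrays after scaling. Spots that the software marked as outliers were left out, 6 of the brighter probe and 7 of the second over all arrays, 0 of them at ZT22. Of these, 1 spot of the brighter probe, at 115 units on the ZT54 array, and 3 of the second reached the dimmest ZT22 spot of their probe, so the separation of spots holds only without outlier spots. Saturated spots numbered 0.

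**Figure D1:**
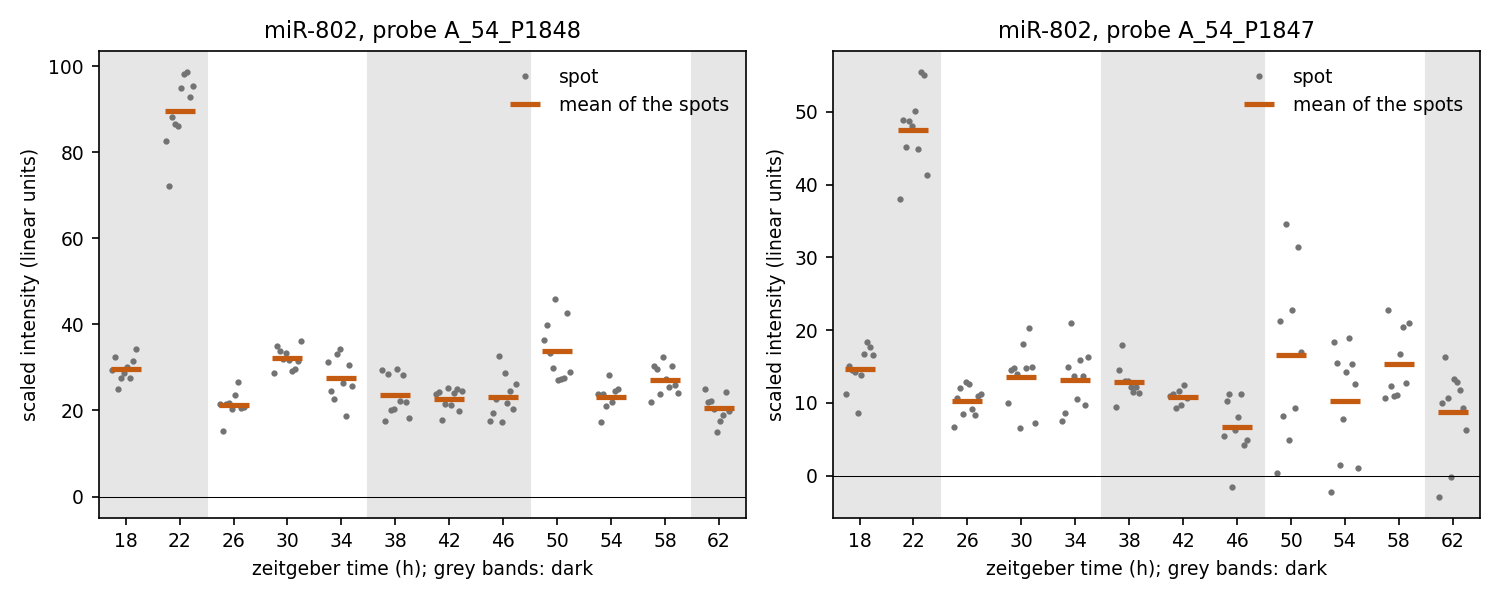
Scaled intensity (linear units) of the spots of miR-802 not marked as outliers, by zeitgeber time, for the brighter probe (left) and the second probe (right, own axis); dots are spots, bars their mean on an array, grey bands the dark. The ZT22 spots lie above the plotted spots of the other arrays on both probes, from 72.2 units up on the left and above 34.6 units on the right.

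Outside ZT22 the signal of miR-802 was low, and the means of its probes rose and fell together. Over the 11 other arrays the probe means correlated with Pearson's r of 0.810 (permutation p = 0.0026) and Spearman's rho of 0.836 (permutation p = 0.00201), both two-sided and the 1 relation computed. Without ZT30 and ZT50, the arrays farthest from the median, r was 0.785. Within the 7 arrays of slide 1, r was 0.691 and rho 0.857, while slide 2 holds 4 arrays, too few for a value. Both probes share the array, its background, the RNA and the scaling factor. On these arrays 1 of the 103 spots of the second probe was well above background. The correlation therefore cannot show whether miR-802 itself followed a course.

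How far this signal stood above background differed between arrays. At ZT22 all 10 spots of each probe were well above background by the software's criterion. On the other arrays 57 of 104 spots of the brighter probe and 1 of 103 of the second met it, and the brighter probe had more than 50% of its spots well above background on 5 of 11. The software called the entry detected on all 12 arrays. Of the 434 negative control spots on an array, 0 reached the level of miR-802 at ZT22, against 0.461% to 7.83% of them on the other arrays. The 95th percentile of the controls lay above miR-802 on 3 arrays, ZT50, ZT54 and ZT62, all on slide 2, and below it on the other 9. Controls were read as single spots with outlier-marked ones kept, while the miR-802 level is a mean of spots without them. Whether outlier spots raised this percentile on slide 2 was not tested. Of the 39 herpesvirus entries, which have no known mouse template, 3 had a mean above that of miR-802 over the 11 arrays and 1 was above it at ZT22.

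**Figure D2:**
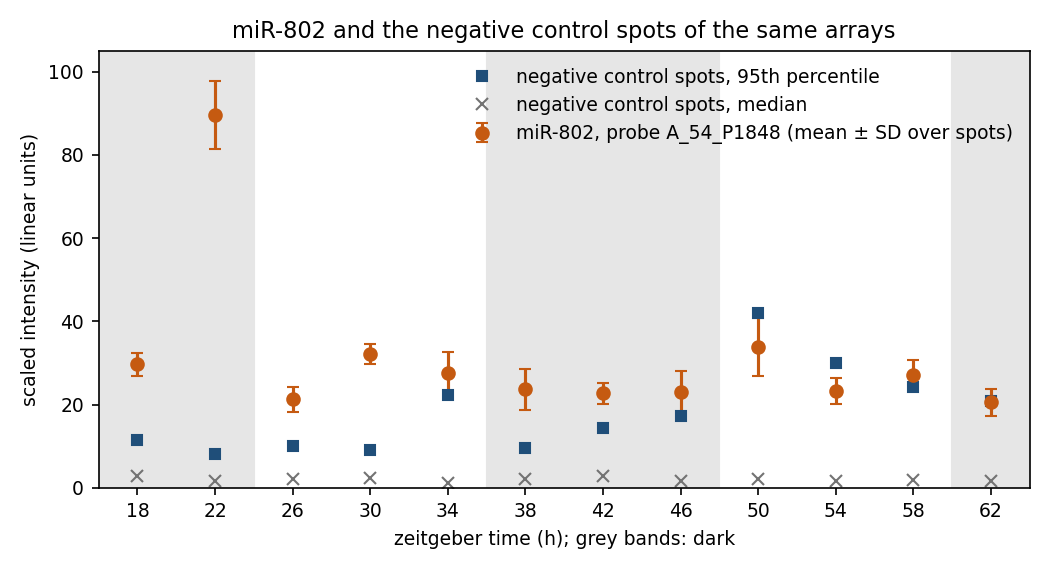
Scaled intensity (linear units) by zeitgeber time of the brighter miR-802 probe (circles, mean ± SD over spots) and of the negative control spots of the same array (squares for the 95th percentile, crosses for the median). Outlier-marked spots are left out for miR-802 and kept for the controls. miR-802 stands at 89.5 units at ZT22, while on the other arrays it lies at 20.6 to 33.9 units, and the squares reach or pass it at ZT50, ZT54 and ZT62.

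Below ZT22, arrays next to each other in the order of levels lay close together. From highest to lowest, they ran ZT50, ZT30, ZT18, ZT34, ZT58, ZT38, ZT54, ZT46, ZT42, ZT26 and ZT62. Of the 11 gaps between neighbours in the full order, 10 were smaller than the larger spot SD of the pair, the gap under ZT22 being the exception. This SD is that of single spots and is wider than the error of their mean, so it does not show that neighbours had equal levels. The SD of miR-802 over the 11 arrays was 0.22 log2 units, against a median of 0.10 over the 139 entries tested. Dim entries vary more, and among 26 entries that stayed above the floor with a mean under 50 units the median SD was 0.15 and 3 had a larger SD than miR-802. miR-802 itself was set to the floor at ZT26 and ZT62, which narrows its SD, so the comparison is not like for like.

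The ZT22 level did not recur 24 h later. At 22 h after lights on, the ZT46 pool measured 23.1 units and the ZT22 pool 89.5 units. At 18 h the ZT42 pool measured 22.8 and the ZT18 pool 29.6 units, and at 2 h the ZT50 pool 33.9 and the ZT26 pool 21.3 units. The pools just before and just after ZT22 thus lay within the range of the rest. At 6 h the values were 23.2 units at ZT54 and 32.1 at ZT30, at 10 h 27.1 at ZT58 and 27.5 at ZT34, and at 14 h 20.6 at ZT62 and 23.6 at ZT38. On 2 arrays, ZT26 and ZT62, the level lay below the floor of 22.2 units that was set before taking log2.

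Dark and light pools were compared first, which in nocturnal mice also separates feeding from rest. Without ZT22, miR-802 measured 29.6, 23.6, 22.8, 23.1 and 20.6 units in the dark pools ZT18, ZT38, ZT42, ZT46 and ZT62. The 6 light pools had a lowest value of 21.3, a median of 27.3 and a highest value of 33.9 units. The groups overlapped, with 4 of 5 dark pools below the light mean. On the log2 scale the means were 4.59 ± 0.17 in the dark (SD, n = 5) and 4.77 ± 0.24 in the light (SD, n = 6), and the dark over light fold was 0.883 with a 95% interval of 0.729 to 1.07. In limma the adjusted p over the 139 entries tested was 0.752, and the exact two-sided permutation test of miR-802 over its 462 arrangements gave p = 0.197. The brighter probe was detected on 3 of the 5 dark and 2 of the 6 light arrays by the share of its spots, which limits what the interval can show. Those arrays are all on slide 1. On slide 2, which holds ZT62 and the light pools ZT50, ZT54 and ZT58, the probe was detected on no array. Within slide 1 the difference was -0.13 log2 units (4 dark and 3 light arrays in limma, adjusted p = 1.0), with the slide as a block -0.19, and within slide 2, with ZT62 as its lone dark array assumed to vary like the rest, -0.32.

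Over all entries tested, 0% (0 of 139) passed an adjusted p of 0.05 in this limma comparison, and 7 had an unadjusted p under 0.05. A list of miRNAs known for roles in glucose metabolism and insulin action was read beside miR-802; 26 of its 37 members could be tested, 7 were detected on 0 arrays, and 0 passed in either direction. The median dark minus light difference was -0.02 log2 units over the list and -0.02 over all tested entries. miR-148a, a hepatocyte miRNA that acts on lipid genes, had the smallest p of the list. It measured 10.30 ± 0.04 in the dark (SD, n = 5) and 10.38 ± 0.04 in the light (SD, n = 6) on the log2 scale, a fold of 0.941 (limma adjusted p = 0.310). The folds of miR-103 and miR-107, a pair that lowers insulin sensitivity in mouse liver, were 0.983 and 0.969. For miR-143, which impairs insulin signalling in obese mouse liver, the fold was 1.05, and for miR-26a, which favours insulin sensitivity, 0.997. miR-122, the most abundant hepatocyte miRNA, had a fold of 0.985, miR-34a, which rises in fatty liver, 0.935, and miR-378, made from an intron of a metabolic coactivator gene, 0.928. miR-29a, miR-29b and miR-29c, which dampen hepatic glucose output genes, had folds of 0.979, 0.958 and 0.968. Of the 26 members tested, 9 were higher in the dark and 17 lower. The largest differences of the list were upward, with folds of 1.21 for miR-181b, 1.17 for miR-200a and 1.11 for miR-200b. Their limma adjusted p values were 0.934, 0.752 and 0.813. These entries were set to the floor on 1, 3 and 3 arrays.

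A rhythm with a period of 24 h was tested next on the 11 arrays. The fitted peak-to-trough fold of miR-802 was 1.15, with an upper 95% limit of 1.67, and the fitted maximum fell 5.04 h after lights on. The limit holds with 2 arrays set to the floor. The limma F test over all entries gave an adjusted p of 1.0. A permutation test of miR-802, with 100000 draws of the time labels, gave p = 0.586. Within the 7 arrays of slide 1 the fold was 1.21 and with the slide as a block 1.15. Of the 139 entries 0% passed in limma, 0 in count, with 7 at an unadjusted p under 0.05. Of the 26 glucose list members 0 passed and 3 had an unadjusted p under 0.05, miR-29b, miR-200a and miR-148a. Their folds were 1.16 (upper limit 1.27), 1.33 (upper limit 1.75) and 1.08 (upper limit 1.16).

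The second cycle was set against the first at the 5 clock times that keep both pools. miR-802 was lower in cycle 2 at 4 of the 5 and higher at 1, and the fold of cycle 2 over cycle 1 was 0.953 with a 95% interval of 0.700 to 1.30. The limma adjusted p was 1.0. The exact two-sided sign permutation gave p = 0.813, and 5 pairs cannot give a p below 0.0625. Slide and cycle overlap, since the 4 arrays of slide 2 are all of cycle 2; the 1 pair within a slide, ZT42 over ZT18 on slide 1, had a ratio of 0.768, and a fit with the slide as a block returned the value of that pair alone. In limma 0% of the entries passed, 0 of 139, with 4 at an unadjusted p under 0.05. Of the glucose list 0 of 26 passed; its median difference was 0.01 log2 units, against 0.02 over all tested entries.

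**Figure D3:**
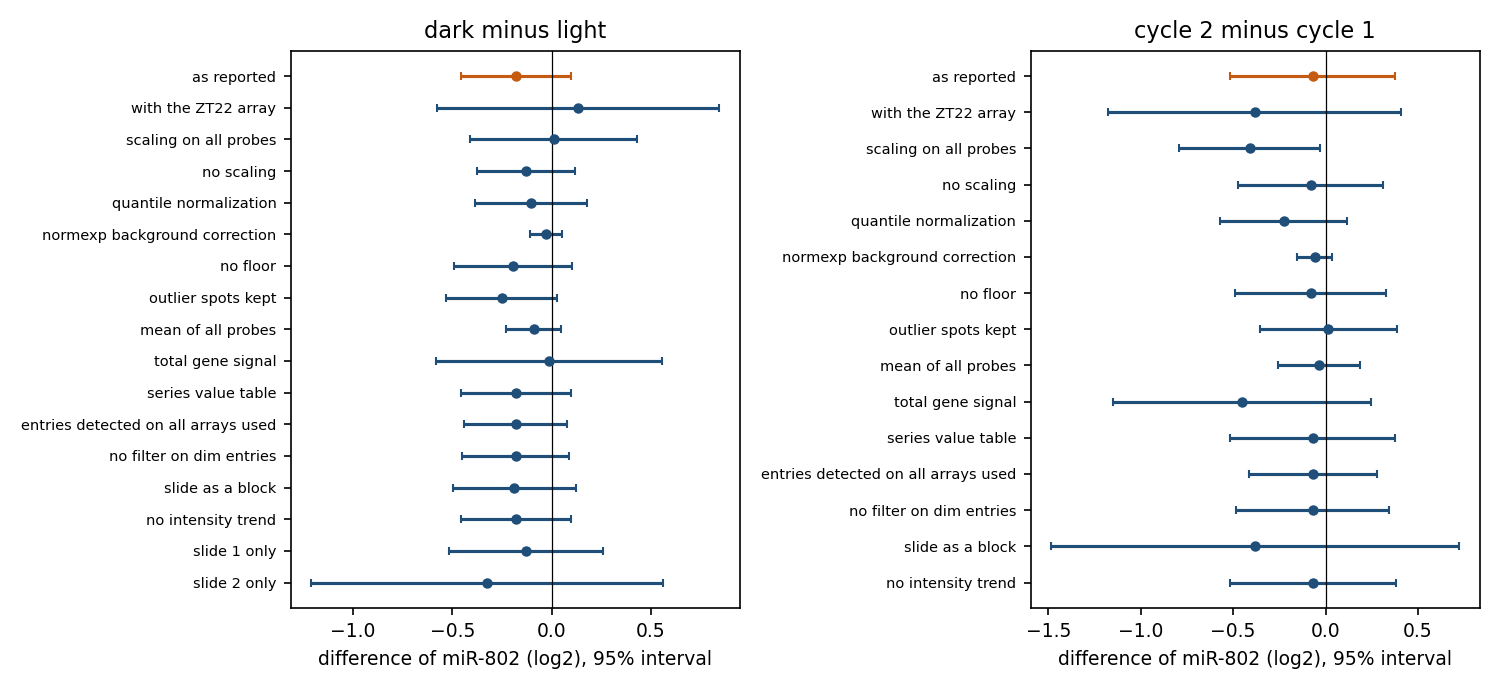
Difference of miR-802 on the log2 scale with its 95% interval, for dark minus light (left) and cycle 2 minus cycle 1 (right), as reported (top row, without ZT22) and under each other setting, one to a row. The reported intervals span 0 on both sides, and the row with the ZT22 array moves the dark minus light value to 0.13.

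The ZT22 array was then described for the rest of the table. miR-802 stood 1.79 log2 units above its mean on the other 11 arrays, and the next entry, miR-200a, 1.00. On the 11 other arrays the largest such excess of any entry lay between 0.18 and 1.39 log2 units, the highest being miR-99b* at ZT46. On the ZT22 array 16.7% of the spots were well above background (16.5% to 19.6% over all arrays) and 143 entries were detected (132 to 162). Of the 139 tested entries 29 had their highest value at ZT22, against 33 at ZT50 and 25 at ZT34. At ZT22, 5 entries stood over 0.5 log2 units above their mean on the other arrays, namely miR-802, miR-200a, miR-200b, miR-199b* and miR-143.

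**Figure D4:**
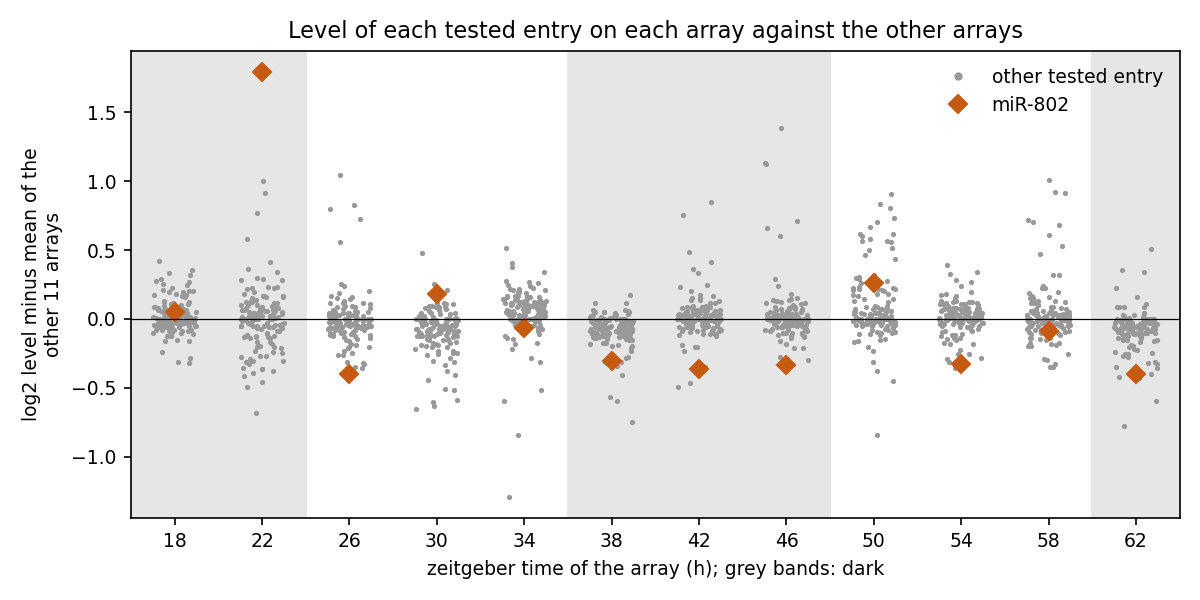
Log2 level of each of the 139 tested entries on each array minus its mean over the other 11 arrays, by zeitgeber time; diamonds are miR-802, dots the other entries (spread sideways for sight), grey bands the dark. miR-802 at ZT22 lies at 1.79, and on the other arrays its points lie between -0.40 and 0.26.

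The other 4 of these 5 entries are members or relatives of members of the marker lists for epithelial and mesenchymal cells, which many other entries highest at ZT22 are not, among them miR-29b, miR-130a and miR-26a. miR-200a and miR-200b, which keep cells epithelial by repressing Zeb factors and in liver mark bile duct cells, measured 49.4 and 49.5 units at ZT22. Their ranges on the other arrays were 18.1 to 35.5 and 21.5 to 35.99 units, with the next highest value of both at ZT42. miR-429 and miR-200c, of the same family, were also highest at ZT22 but dim, at 15.1 and 5.84 units against highest values elsewhere of 13.4 and 3.31. miR-141 was not, with 6.28 units at ZT22 and 13.3 at ZT50, nor was miR-31, the brightest of the list, with 61.8 units at ZT22 and 59.8 to 73.1 elsewhere. Over the 7 entries of the epithelial list the summed level was 188 units at ZT22, against 115 to 154 in the other 5 dark pools and 117 to 144 in the 6 light pools; miR-200c, miR-141 and miR-205 were detected on 0 arrays.

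Among mesenchymal miRNAs, miR-143 of smooth muscle and fibroblasts measured 62.7 units at ZT22 and 36.05 to 49.4 elsewhere. miR-199a-3p of stellate cells measured 149 units at ZT22 and 98.9 to 129 elsewhere, and miR-199b* 48.5 units and 22.6 to 34.7. The 5 entries of the mesenchymal list summed to 279 units at ZT22, against 193 to 228 in the other dark pools and 186 to 221 in the light pools, with miR-145 detected on 0 arrays. The part of these epithelial and mesenchymal signals in the miR-802 value was not tested.

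Marker lists were also read for pancreas and kidney, 2 other organs that make miR-802, and none was made for intestine. Carry-over of other tissue into a pool was not tested. miR-216a, miR-216b, miR-217 and miR-375, which define exocrine and endocrine pancreas, were detected on 0 arrays and read -5.61 to 0.736 units at ZT22. The 5 entries of the pancreas list summed to 46.7 units at ZT22, against 48.9 to 54.4 in the other dark pools and 46.4 to 79.2 in the light pools, nearly all of it from miR-7a. Of the 5 kidney list entries, miR-204, miR-196a and miR-190 were detected on 0 arrays, and the sum was 145 units at ZT22, against 135 to 155 in the other dark pools and 134 to 172 in the light pools. Most of this sum was miR-10a, detected on all 12 arrays and at 128 units at ZT22. Hepatocyte markers checked the tissue label: 6 of 6 were detected on every array, and miR-122 measured 30746 units at ZT22 and 29458 to 33127 elsewhere. The hepatocyte list summed to 37674 units at ZT22, against 36209 to 39715 in the other dark pools and 36024 to 39881 in the light pools. The sums at ZT22 were 1888 units for the 3 red cell entries, 545 for the 6 leukocyte entries and 1453 for the 2 endothelial entries, each within the range of the other 11 pools.

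**Figure D5:**
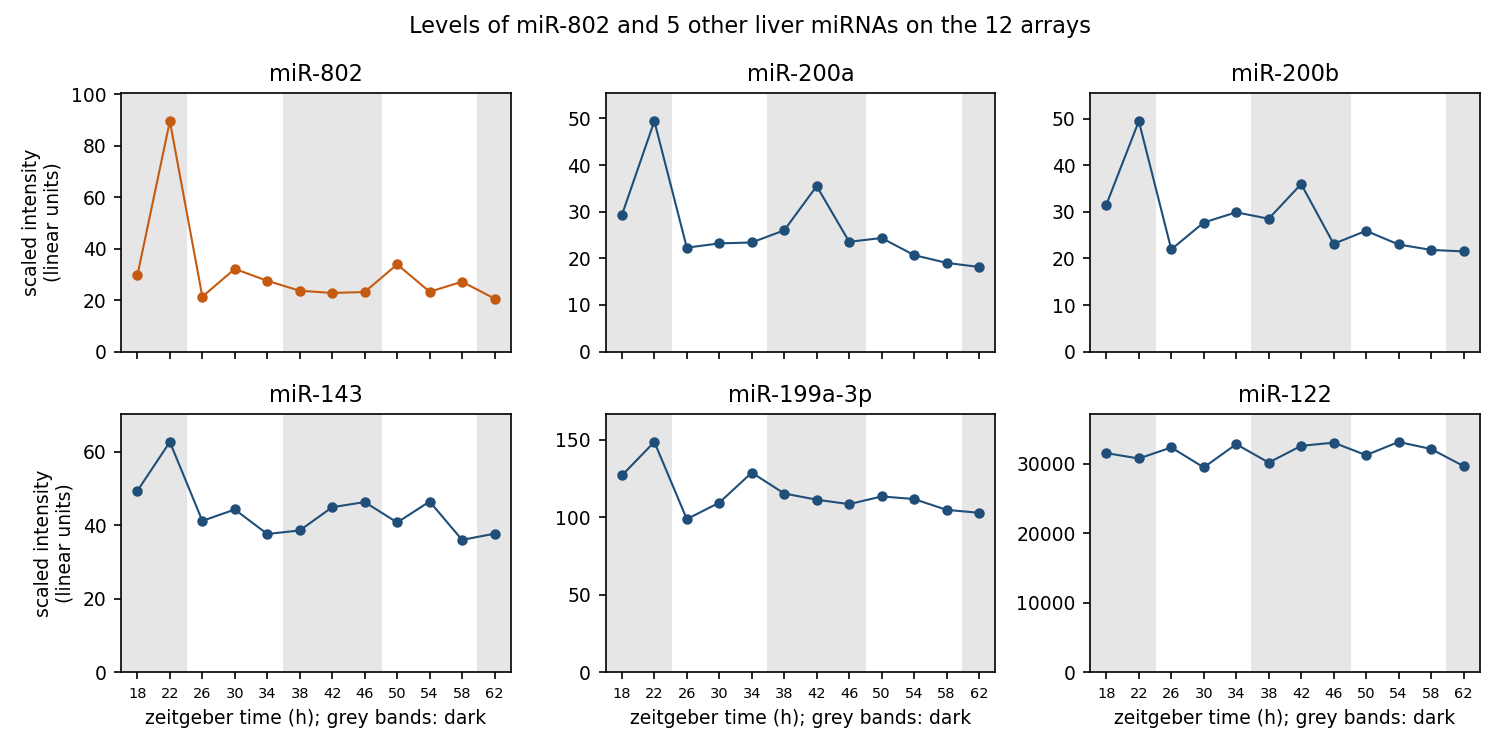
Scaled intensity (linear units, each panel with its own axis from 0) by zeitgeber time of miR-802, the epithelial miR-200a and miR-200b, the mesenchymal miR-143 and miR-199a-3p, and the hepatocyte miR-122; points are arrays, grey bands the dark. All except miR-122 have their highest point at ZT22, by 2.64 times the next highest array for miR-802. On that array, ZT50, 1 of 10 spots of the brighter miR-802 probe was well above background.

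Likeness to miR-802 was measured by Pearson's r on log2 values over the arrays, among 109 entries that never reached the floor, and is a description. Over the 11 arrays without ZT22 the closest entries were miR-350 (r = 0.790), miR-34a (0.624), miR-142-3p (0.614), miR-212 (0.602) and miR-140 (0.595), against a median r of 0.09. Over all 12 arrays they were miR-199b* (0.834), miR-130a (0.818), miR-199a-3p (0.790), miR-199a-5p (0.738) and miR-143 (0.715). Without ZT22 these 5 had r of 0.497, 0.144, 0.440, 0.303 and 0.051. At ZT22 itself miR-350 measured 37.3 units, against 41.2 to 63.3 on the other arrays. All these values share the array, its scaling factor and the pool of RNA.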

How the data were processed

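The authors deposited 1 Agilent Feature Extraction file per array with spot intensity on a linear scale, background-subtracted and detrended within the array, per the file headers (version 10.7.3.1; the submitters' processing notes name 9.5.3.1). The deposited value table differed from these signals by 0. No scaling between arrays had been applied. miR-802 and the lists were chosen with earlier results of these data known.

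Control spots and outlier-marked spots were left out, the spots of a probe averaged, and arrays scaled to the 75th percentile of 157 probes detected (over 50% of spots well above background) on all 12 arrays. Values under 22.2 units (the lowest detected signal of an array, as the median of all 12) were set to that floor before log2. The probe with the highest mean stood for an entry. The 139 entries (135 of mouse) that the scanner software called detected on 6 or more arrays went into tests with limma 3.58.1 (R 4.3.3) with intensity-trended moderated variance and Benjamini-Hochberg adjustment; the tests were tested on simulated data. ZT22 was left out of these tests, except in the alternative that includes it.

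Named entries were miR-802, tested glucose list members and pancreas markers. The 5 entries most like miR-802 with and without ZT22, and the 5 never at the floor with the largest ZT22 excess, were also named. miR-200a, miR-200b and other list members were named as markers. After their values were seen, miR-21, miR-712, miR-99b* and the herpesvirus entries were named. The files hold no mean signal, so normexp used the median signal, and its log2 values were then quantile normalized. Scan and slide coincide (2 slides). The number of arrays limits precision.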

Additional observations from a re-analysis of the deposited data

Results flagged for a closer look

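Of 70 groups of 6 arrays examined (35 named entries, dark and light), 6 held an array far from the others by Dixon's criterion. Chance gives this in about 1 in 20 groups, a rate that does not hold for entries picked by their ZT22 values, miR-802 and miR-130a among them. The ZT22 value of miR-802, 6.48 log2 units against 4.47 to 4.89 on the other dark arrays, chose the entry and is a description. Among the dark arrays the ZT22 array also stood apart for miR-29b, at 10.51 against 10.14 to 10.26, for miR-130a, at 9.68 against 9.40 to 9.49, and for miR-212, which was low there, at 7.84 against 8.12 to 8.26. The ZT50 array stood apart among the light arrays for miR-350, at 5.98 against 5.38 to 5.59, and for miR-140, at 5.93 against 5.37 to 5.55.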

How the results depend on the processing

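For dark minus light, miR-802 lay between -0.25 and -0.12 log2 units when each of the 11 arrays was left out in turn. It reversed to 0.010 with scaling on all probes, where the median of all entries was 0.34 (-0.33 relative to it), and to 0.13 with the ZT22 array. The 24-h value lay between 0.11 and 0.35 log2 units peak to trough with arrays left out in turn, and between 0.057 (normexp) and 0.59 (with the ZT22 array) in the other settings. For cycle 2 minus cycle 1 the range was -0.24 to 0.030 with arrays left out and -0.45 (total gene signal) to 0.015 in the other settings, with -0.38 when ZT22 was included. It turned positive without ZT18 or ZT42 (0.0085 each) and without ZT30 or ZT54 (0.030 each), which drop their pair, and with outlier spots kept (0.015); the cause was not tested. Scaling on all probes moved the median of all entries to -0.56 there, with miR-802 0.15 above it. miR-802 passed an adjusted p of 0.05 in limma under none of these. The count of entries called stayed 0 in every setting run, arrays left out included, except the 24-h rhythm. There 1 passed, miR-29b, both with quantile normalization and with normexp, whose values were quantile normalized too. The ZT22 excess of miR-802, 1.79 log2 units, was 2.09 with all-probe scaling (1.71 above the median entry), 0.74 with normexp, 1.45 with the mean of all probes, and 2.21 with the total gene signal. The normexp setting has an offset of 50, which compresses dim signals by construction, and also differs by its median signal and quantile normalization. In place of no filter, 178 mouse entries above the floor on at least 1 array were tested, since the model over all 611 could not be fitted. No paired analysis was possible beyond the pairing by clock time that the cycle comparison already uses, because each array reads its own pool and the labels give no pairs. The slide-only values were chosen after seeing the data.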

Other observations

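Some entries were low in the ZT22 pool. miR-21, an miRNA raised by liver injury and regeneration, measured 7147 units at ZT22 and 8259 to 9289 units on the other 11 arrays. miR-212 measured 230 units at ZT22 and 278 to 348 elsewhere. miR-712 measured 24.2 units at ZT22 and 34.3 to 55.1 elsewhere, 0.69 log2 units below its mean there. Herpesvirus entries, which have no known mouse template, were low at ZT22 too. mcmv-miR-M23-1-5p measured 112 units against 132 to 174 elsewhere, and mcmv-miR-m88-1 70.0 against 79.3 to 102. mghv-miR-M1-2, at 27.4 units, lay within its range elsewhere of 25.1 to 41.8. The cause of these low values was not tested.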
